A study of Mus musculus with 2 samples.

Results

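Histone lysine methyltransferases and demethylases place and remove methyl groups on lysines of histone tails. They were chosen here by gene symbol alone: the KMT2 and KMT5 genes, the SETD, SETDB, SUV39H, EHMT and NSD genes, Dot1l, Ash1l, Smyd2 to Smyd5, the numbered PRDM genes and the JmjC demethylases of the names Kdm2 to Kdm8. The rule found 60 genes among 55348 gene entries and left out Kdm5d, which lies on the Y chromosome. RNA came from hearts of 129sv mouse embryos at E13.5, in mid-gestation. There was 1 library from wild-type hearts and 1 from hearts with the genotype Lmna H222P/H222P, in which both copies of the lamin A/C gene carry a missense mutation used as a mouse model of laminopathy. The labels named no treatment, allele or agent beyond this genotype, and did not give the number of hearts or the sex of the embryos. The study as a whole concerned the histone demethylase LSD1 and this mouse model.

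No replicate stood behind either library, so every ratio below is between 2 libraries, has no test and cannot be assigned to the genotype. Intervals in parentheses are exact 95% binomial intervals that cover counting error alone. Total gene counts were 32669225 reads (wild type) and 25120790 reads (H222P), and 3 reads, the upper limit that a count of 0 allows, were 0.0968 and 0.113 CPM (the usual scaling of counts to library size, here with TMM factors). Cardiomyocyte markers were abundant in both libraries, which are labelled as heart. The 10 markers summed to 26229 CPM in wild type and 13892 CPM in H222P, with none at 0 reads. Of these 10, 7 were at least 1.5-fold lower in H222P. Markers of other cells differed as well. All 10 hepatocyte markers and 9 of 10 erythroid markers were at least 1.5-fold higher in H222P, with summed levels of 10.5 against 5543 CPM and 220.5 against 1491 CPM and no marker at 0 reads in either library. All 5 measured megakaryocyte markers were higher by this bound too (Gp1bb had 0 reads in both libraries), as were 4 of 7 of lung and foregut mesenchyme with 2 lower, while 1 of 7 was lower among epicardial and among macrophage markers. The part of these differences in the ratios below was not tested. Hepatocyte RNA was abundant in the H222P library (Alb had 81 reads in wild type and 83174 in H222P). Whether that library held heart tissue alone was not tested, so the ratios are not known to compare heart with heart only. In bulk RNA, fewer cells of a type and less RNA per cell cannot be told apart.

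By way of background, methylation of a histone lysine is read by proteins that open or close chromatin, and the outcome depends on the residue. Methylation of lysine 4 of histone H3 (H3K4) marks promoters and enhancers, that of H3K36 and H3K79 marks transcribed gene bodies, and that of H3K9, H3K27 and H4K20 is tied to repression and heterochromatin. Most writers carry a SET domain, whereas Dot1l uses an unrelated fold. The JmjC demethylases need iron and oxoglutarate, unlike LSD1, which uses a flavin. In the developing heart such enzymes are known for their part in switching progenitor, chamber and fetal programmes.

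Most of the 60 genes were expressed. A mean of at least 1 CPM over the libraries was reached by 55, which are called measured here, and their median mean level was 68.0 CPM, against 24.9 CPM over all 14716 measured genes. Together the 60 genes took 0.341% of gene reads in wild type and 0.408% in H222P. Levels between genes are given as RPKM (CPM per kilobase of exon, over the union of annotated exons), and ranged from a mean of 0.246 to 36.8 RPKM among the measured genes. Smyd2, a lysine methyltransferase of histone and other proteins, stood first in both libraries with 47.4 RPKM in wild type and 26.2 RPKM in H222P. Ehmt2, which encodes the H3K9 methyltransferase G9a, stood second in both with 21.2 and 23.8 RPKM. The X-linked H3K4 demethylase gene Kdm5c (20.7 and 19.3 RPKM) and Kmt5a, the H4K20 monomethyltransferase gene (19.5 and 19.5 RPKM), came next and exchanged places between the libraries. The order of all 55 was nearly the same in both libraries, as seen in the plot of levels by gene (Spearman rho 0.978 across genes, which are not independent replicates).

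**Figure D1:**
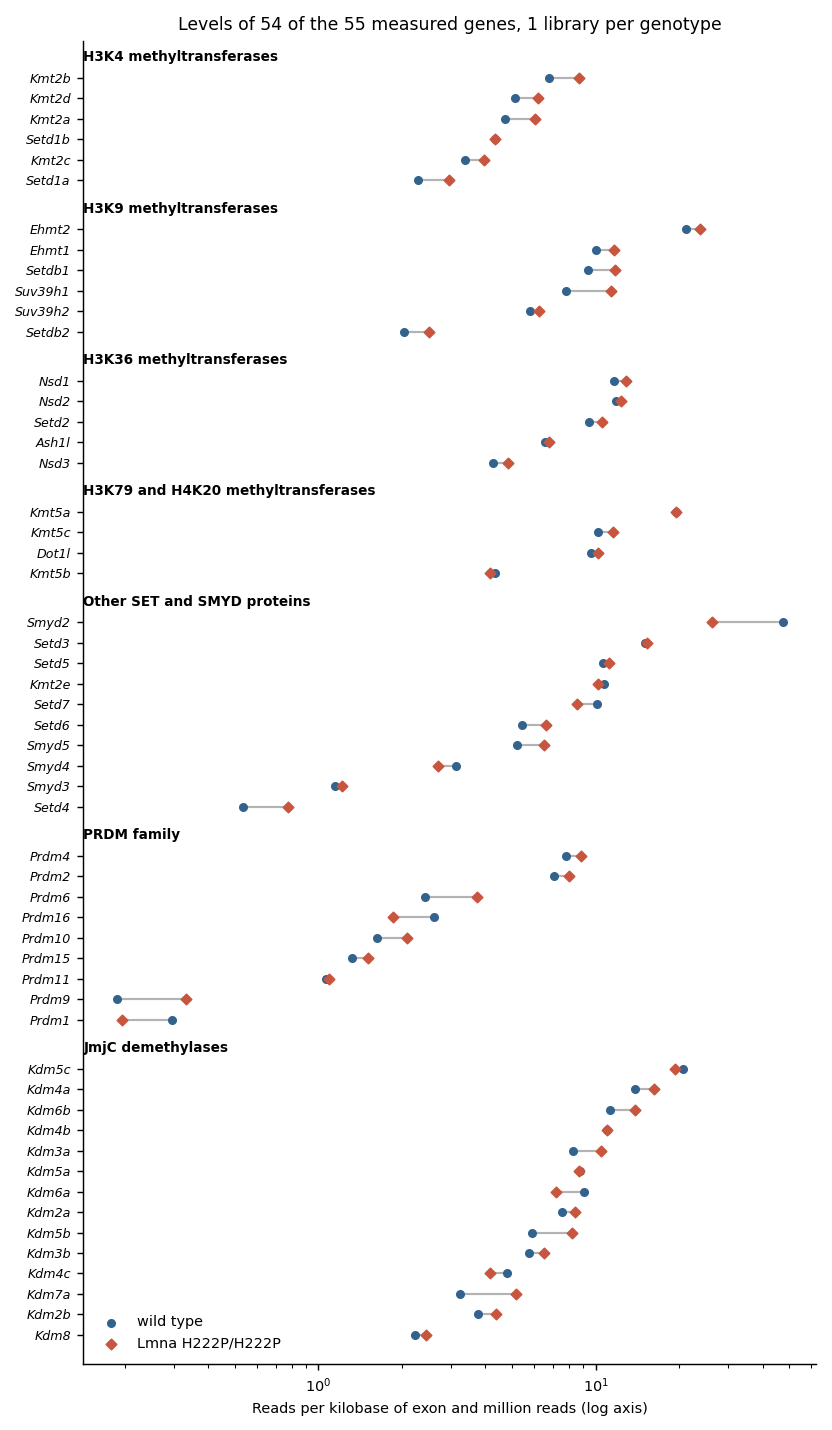
Level of 54 of the 55 measured genes in RPKM on a log axis, grouped by textbook substrate or family. Circles are the wild-type library and diamonds the Lmna H222P/H222P library, 1 of each with no error bar. Smyd2 lies furthest right in both libraries, and the PRDM genes Prdm1 and Prdm9 furthest left.

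Differences between the libraries were small and leaned to one side. Of the 55 measured genes, 3 were at least 1.5-fold higher in H222P (Kdm7a, Prdm6 and Prdm9), 1 was at least 1.5-fold lower (Smyd2) and 51 lay between. Over all measured genes, 10.9% were at least 1.5-fold higher and 11.4% at least 1.5-fold lower, so neither count stands above its background. None of the 55 was 2-fold apart in either direction, where the backgrounds were 5.95% and 4.35%. A stricter filter of 20 CPM on the mean, added after the data were seen, left 41 of the genes with 1 higher and 1 lower, against backgrounds of 4.43% and 7.91%. The median log2 ratio, H222P over wild type, was 0.16 for the 55 genes and −0.01 over all measured genes. Ratios above 0 were found for 41 of 55 genes (74.5%), against 49.2% of all measured genes. Scaling by total counts alone moved the median of all genes by 0.15 and that of the 55 to 0.32, a distance of 0.17 between them as before, and gave 7 genes with a ratio near 0 the opposite sign. These were Setd1b, Kmt5a, Kmt5b, Kmt2e, Kdm4b, Kdm5a and Kdm5c.

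**Figure D2:**
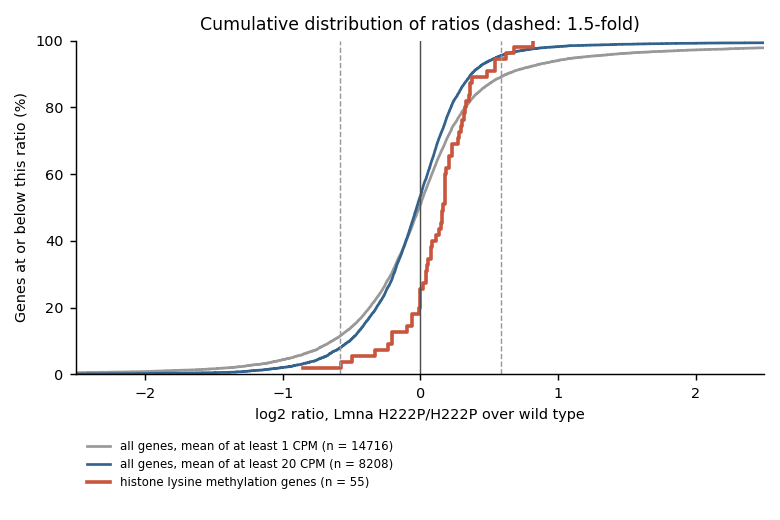
Cumulative share of genes (vertical axis, percent) at or below each log2 ratio of Lmna H222P/H222P over wild type (horizontal axis, shown from −2.5 to 2.5). The curve of the 55 histone lysine methylation genes (red) reaches its median, 0.16, to the right of both background curves and is contained between −0.86 and 0.82.

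The H3K4 methyltransferases were slightly higher in H222P as a group, with 5 of 6 ratios above 0 and a median of 0.32. None of the 6 reached 1.5-fold. Kmt2a, the MLL1 gene of Hox gene control, had 2428 reads in wild type and 2658 in H222P, and Kmt2b, its closest relative, 2013 and 2205 reads. After scaling both were 1.28-fold higher, with intervals of 1.21 to 1.35 and 1.21 to 1.36. Kmt2c and Kmt2d, which act at enhancers, had log2 ratios of 0.23 (2124 and 2125 reads) and 0.27 (3165 and 3270 reads). Setd1a, of the complex that places most H3K4 trimethylation, was the scarcest at 2.28 and 2.96 RPKM, with 480 and 532 reads and a log2 ratio of 0.37 (0.19 to 0.56). Its partner-in-kind Setd1b had 1623 and 1387 reads, equal after scaling (log2 interval −0.10 to 0.10). Within the pair, Setd1a therefore held 22.8% of reads in wild type (21.0 to 24.7) and 27.7% in H222P (25.7 to 29.8). Kmt2b was the highest of the 6 per length, at 6.77 and 8.68 RPKM.

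All 6 H3K9 methyltransferase genes had ratios above 0, with a median of 0.25 and none at 1.5-fold. Suv39h1 (chromosome X, 8061171 to 8074760, GRCm38), which trimethylates H3K9 in pericentric heterochromatin, stood furthest out with 1271 reads in wild type and 1582 in H222P. It was 1.46-fold higher (1.35 to 1.57), just short of 1.5-fold. Its paralogue Suv39h2 had 792 and 731 reads, at log2 0.11 (−0.04 to 0.26). Suv39h1 thus made up 61.6% of the pair's reads in wild type (59.5 to 63.7) and 68.4% in H222P (66.5 to 70.3), a measure that needs no scaling between libraries. Ehmt1 and Ehmt2, whose proteins GLP and G9a form a heterodimer for H3K9 dimethylation, kept their division: Ehmt2 had 3609 and 3457 reads and held 58.9% and 58.1% of the pair. Setdb1, the enzyme that silences retroviral elements, had 1985 and 2124 reads, at log2 0.32 (0.24 to 0.41). Setdb2 was scarce, with 256 and 268 reads (0.29, 0.04 to 0.55).

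The 5 H3K36 methyltransferases had the narrowest range of the groups, with log2 ratios between 0.05 and 0.18 and a median of 0.15. Nsd1, which writes H3K36 dimethylation, had 6293 and 5963 reads and was the highest of the group per length in H222P (12.9 RPKM). Nsd2, the gene deleted in Wolf-Hirschhorn syndrome, which includes heart defects, had 6160 and 5486 reads and was the highest in wild type (11.8 RPKM). Nsd3 had 2175 and 2108 reads. Setd2, which makes H3K36 trimethylation behind RNA polymerase II, had 3145 and 2996 reads, and Ash1l, a Trithorax-group enzyme, 3008 and 2658. Dot1l, the H3K79 methyltransferase, had 2596 and 2341 reads and a log2 ratio of 0.08 (−0.00 to 0.16). Among the H4K20 enzymes, Kmt5a had 3210 and 2739 reads and the same level after scaling (104 and 103 CPM). Kmt5b had 1981 and 1625 reads and Kmt5c 1265 and 1222, log2 ratios of −0.06 and 0.18. The median of Dot1l and the KMT5 genes was 0.04.

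The 10 other SET and SMYD genes had a median of 0.05. Only 1 of them was at least 1.5-fold apart, and it was lower, as were 11.4% of all measured genes. That gene was Smyd2 (chromosome 1, 189880492 to 189922363, minus strand), with 3991 reads in wild type and 1885 in H222P, or 129 and 71.2 CPM. It was 1.81-fold lower in H222P (1.71 to 1.91). Smyd1, the muscle-restricted relative that lies outside the naming rule, was lower too, with 11297 and 6137 reads (log2 ratio −0.65, −0.70 to −0.61). Cardiomyocyte markers had a median log2 ratio of −0.96 in the same libraries, from −1.62 to −0.17, and their part in the lower Smyd2 was not tested. Smyd5 went the other way with 945 and 1009 reads (0.32, 0.19 to 0.45), and Smyd2 held 70.3% of the reads of the 4 SMYD genes in wild type (69.0 to 71.4) and 53.9% in H222P (52.2 to 55.5). Smyd3 and Smyd4 had 326 and 296 reads and 419 and 310 reads.

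In this group Setd7, a monomethyltransferase of H3K4 and of many non-histone proteins, was the next lowest, with 3391 and 2459 reads and a log2 ratio of −0.24 (−0.31 to −0.16). Setd3, which methylates a histidine of actin, was level with 2824 and 2444 reads (0.02, −0.06 to 0.10) and was second to Smyd2 in this group per length. The related Kmt2e and Setd5, which have a SET domain of the same type, had 3456 and 2830 reads and 6027 and 5438 reads, log2 ratios of −0.06 and 0.08. Setd6, a methyltransferase of the NF-kappaB subunit RelA, had 320 and 333 reads (0.28). Setd4 was rare, with 89 and 111 reads, and its 1.46-fold higher value had a wide interval (1.09 to 1.95).

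Promoter sequence is shown for the genes that stood furthest apart in opposite directions above 5 CPM, Smyd2 and Kdm7a, and for Prdm12, a neuronal gene without a read in either library. Each run is the 250 bases before the RefSeq start, 5′ to 3′ on the strand of the gene (GRCm38.p6), with CpG dinucleotides in capitals. The windows are chr1:189922292-189922541 (minus strand) for Smyd2, chr6:39206774-39207023 (minus strand) for Kdm7a and chr2:31639787-31640036 (plus strand) for Prdm12.
Smyd2: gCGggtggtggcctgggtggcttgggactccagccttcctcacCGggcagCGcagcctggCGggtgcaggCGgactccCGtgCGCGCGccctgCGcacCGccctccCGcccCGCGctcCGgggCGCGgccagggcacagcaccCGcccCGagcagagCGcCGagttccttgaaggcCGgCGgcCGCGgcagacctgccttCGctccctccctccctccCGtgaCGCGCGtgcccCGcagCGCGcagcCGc
Kdm7a: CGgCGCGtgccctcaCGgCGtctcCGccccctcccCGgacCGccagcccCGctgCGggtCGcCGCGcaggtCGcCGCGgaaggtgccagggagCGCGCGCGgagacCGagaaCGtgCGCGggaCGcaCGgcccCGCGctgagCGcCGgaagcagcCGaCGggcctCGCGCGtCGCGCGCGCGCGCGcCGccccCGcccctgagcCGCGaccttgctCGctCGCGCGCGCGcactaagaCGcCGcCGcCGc
Prdm12: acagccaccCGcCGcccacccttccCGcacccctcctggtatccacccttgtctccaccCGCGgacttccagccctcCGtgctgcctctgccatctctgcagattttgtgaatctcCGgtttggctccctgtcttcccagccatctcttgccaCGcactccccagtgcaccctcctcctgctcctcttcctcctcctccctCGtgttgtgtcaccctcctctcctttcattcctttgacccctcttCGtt
The Smyd2 window held 34 CpG dinucleotides and 78.8% G and C, and the Kdm7a window 56 and 82.0%. The ratio of CpG found to CpG expected from base composition was 0.89 for Smyd2 and 1.35 for Kdm7a, higher than in 87.4% and 99.9% of 27025 promoters. The median ratio was 0.38 over all these promoters and 0.72 over the 10858 that belong to measured genes, the set that Smyd2 and Kdm7a are part of. The Prdm12 window held 10 CpG and 61.2% G and C, and its ratio of 0.59 was higher than in 65.0% of all promoters. A GC box (GGGCGG on either strand) occurred 3 times in each of the windows of Smyd2 and Kdm7a and 1 time in that of Prdm12, and 32.9% of all promoters and 59.2% of those of measured genes held at least 1. Windows were found for 43 of the 60 genes, under 80%, so that a summary of promoter composition over the genes would be void and is not given.

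The PRDM genes, zinc finger proteins with a SET-related domain, ranged from −0.58 to 0.82 on the log2 scale. Of 14, 10 were measured, and the median was 0.18. At least 1.5-fold higher were 2 and lower 0, against 10.9% and 11.4% of all measured genes. The broadly expressed Prdm4 and Prdm2 led per length with 7.82 and 8.84 RPKM and 7.07 and 7.99 RPKM. Their reads were 1190 and 1151 for Prdm4 and 1625 and 1570 for Prdm2, both 1.13-fold higher. Prdm6, a gene of vascular smooth muscle (chromosome 18, 53463583 to 53575907), had 261 reads in wild type and 343 in H222P and was 1.54-fold higher (log2 0.62, 0.38 to 0.86). The value was under 1.5-fold with reads of both strands (log2 0.56) or after thinning of the deeper library (0.58). Smooth muscle and pericyte markers were split in the same libraries, 2 of 8 at least 1.5-fold higher and 2 lower, with a median of −0.11, a summed level of 1493 against 1147 CPM and none at 0 reads, and their part was not tested.

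Prdm16, which is needed for ventricular compaction and is linked to human cardiomyopathy (chromosome 4, 154316125 to 154636873), had 756 reads in wild type and 458 in H222P. Its log2 ratio was −0.50 (−0.67 to −0.33). Cardiomyocyte markers had a median of −0.96, and 6 of 8 endothelial markers were at least 1.5-fold lower, with a median of −0.66, a summed level of 1071 against 691 CPM and none at 0 reads. The part of either in the Prdm16 value was not tested. Prdm1, the Blimp-1 gene of progenitor and immune cells, rested on 51 and 29 reads and had a log2 ratio of −0.58, with an interval from −1.30 to 0.10 that shows no direction. Prdm9, which places meiotic recombination sites, had 25 and 38 reads and was 1.77-fold higher (1.05 to 3.07). Prdm9 was under 1 CPM in wild type (0.807) and passed the filter through the H222P library (1.43). Of the germ cell markers, Ddx4 had 58 and 89 reads and Dazl 12 and 2, 5 of 6 were below a mean of 1 CPM, the list summed to 3.52 and 5.36 CPM, and Dppa3 and Stra8 were at 0 reads in H222P. Their part in the Prdm9 value was not tested. Prdm10, Prdm15 and Prdm11 had between 452 and 561 reads, and log2 ratios of 0.36, 0.19 and 0.04.

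The remaining 4 PRDM genes were not measured. Prdm12 and Prdm13, both of the developing nervous system, had 0 reads in both libraries, and Prdm14, of germ cells and pluripotent cells, had 0 and 2 reads. No ratio is given for these. Prdm8, a neural gene, had 20 reads in wild type and 4 in H222P, a 3.89-fold lower value with an interval of 1.43 to 17.2. Opposite-strand reads at Prdm8 were 9 and 1, and a gene on the other strand overlaps it. Of 8 neural and neural crest markers, 5 were at least 1.5-fold higher in H222P, against 10.9% of all measured genes, and 0 lower. Their summed levels were 96.4 and 124.7 CPM, with none at 0 reads. Their part in the Prdm8 value was not tested.

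**Figure D3:**
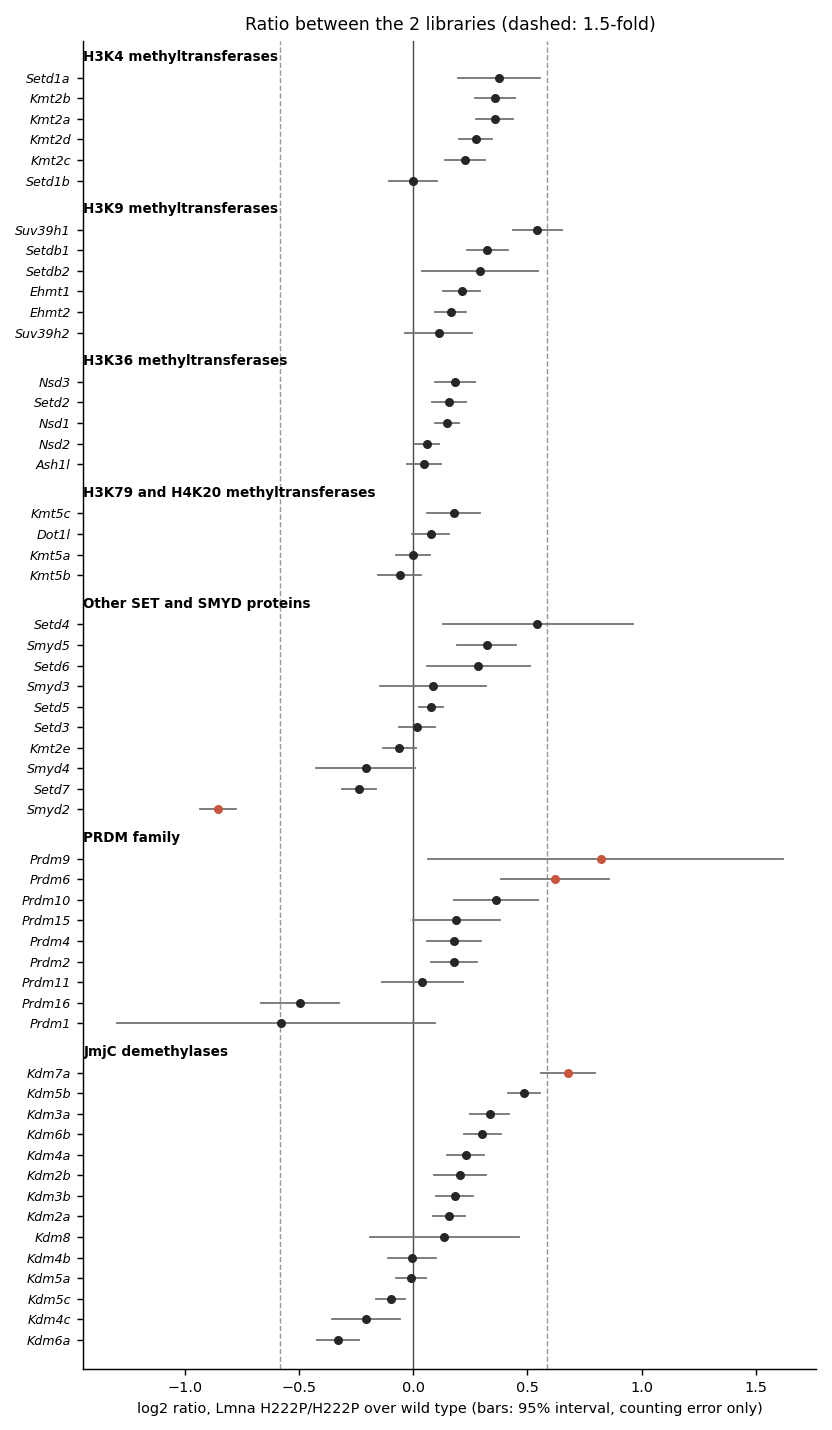
log2 ratio of Lmna H222P/H222P over wild type for 54 of the 55 measured genes, grouped as in the text. Points are the ratio between the 2 libraries, bars the exact 95% interval for counting error, and dashed lines 1.5-fold. The 4 genes past 1.5-fold are red, and the bars of Prdm9 and Prdm1 are the widest.

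Among the 15 JmjC demethylases, 14 were measured, with a median of 0.17. At least 1.5-fold higher was 1 and lower 0, against 10.9% and 11.4% of all measured genes. Kdm7a (chromosome 6, 39136623 to 39206789, minus strand), which removes methyl groups from H3K9 and H3K27, had 1007 reads in wild type and 1377 in H222P, or 32.5 and 52.0 CPM. Its log2 ratio of 0.68 (0.56 to 0.80) remained past 1.5-fold under the 6 other scalings, columns and settings tried for single genes (log2 0.65 to 0.83). Kdm5b, an H3K4 demethylase, had 3015 and 3611 reads and was 1.40-fold higher (1.33 to 1.47). In the same libraries 2 of 10 proliferation genes were at least 1.5-fold higher, Mki67 among them (log2 0.72), with a list median of 0.16, a summed level of 2232 against 2758 CPM and none at 0 reads. Their part in the Kdm5b value was not tested.

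The other KDM5 genes did not follow. Kdm5a had 3856 and 3274 reads (−0.01, −0.08 to 0.06) and Kdm5c 4554 and 3634 reads (−0.10, −0.16 to −0.04). Kdm5b made up 26.4% of the reads of the 3 genes in wild type (25.6 to 27.2) and 34.3% in H222P (33.4 to 35.2). Kdm5c went from 39.9% (39.0 to 40.8) to 34.5% (33.6 to 35.5). Per exon length the shares were 16.6% and 22.7% for Kdm5b and 58.5% and 53.2% for Kdm5c, so Kdm5c stayed the more abundant. The H3K27 demethylase genes also parted. Kdm6a, or UTX, which lies on X (18162575 to 18279936), had 2347 and 1598 reads and was 1.26-fold lower (1.18 to 1.34), the lowest of the demethylases. Kdm6b, or JMJD3, had 2422 and 2553 reads and had a log2 ratio of 0.30 (0.22 to 0.38). The Kdm6a share of the pair was 49.2% in wild type (47.8 to 50.6) and 38.5% in H222P (37.0 to 40.0).

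Kdm5c and Kdm6a belong to the X-linked genes known to escape X inactivation, and the libraries differed in sex-linked transcripts. Xist, the RNA of the inactive X, had 12116 reads in wild type and 1727 in H222P, a log2 ratio of −2.58 (−2.66 to −2.51). The Y-linked Ddx3y had 1224 and 3126 reads and Eif2s3y 668 and 1796, log2 ratios of 1.58 and 1.65. The X-linked partners Eif2s3x and Ddx3x, which also escape, had log2 ratios of −0.33 and −0.09, close to the values of Kdm6a and Kdm5c. Whether the sex of the embryos differed is not given in the labels, and its part in the Kdm5c and Kdm6a values cannot be told apart from genotype. The third measured gene on X, Suv39h1, went the other way with a log2 ratio of 0.54. The 3 measured genes on X had a median of −0.10, which is the value of Kdm5c, and without them the median of the other 52 was 0.17.

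The other measured demethylases had log2 ratios between −0.21 and 0.34. Kdm3a, an H3K9 demethylase induced by low oxygen, had 2113 and 2279 reads (0.34, 0.25 to 0.42) and Kdm3b 2515 and 2437 (0.18, 0.10 to 0.26). In the KDM4 group, which acts on H3K9 and H3K36 trimethylation, Kdm4a had 2473 and 2478 reads, Kdm4b 1665 and 1418 and Kdm4c 867 and 642. Their log2 ratios were 0.23, −0.01 and −0.21, in the order of their abundance, and the Kdm4a share of the group was 49.4% (48.0 to 50.8) and 54.6% (53.1 to 56.0). Kdm4d had 1 and 4 reads, a ratio of 3.51 with an interval from 0.463 to 230 that shows no direction. Kdm2a and Kdm2b, CXXC proteins that demethylate H3K36, had 3376 and 3220 reads and 1272 and 1254 reads, log2 ratios of 0.16 and 0.21, and nearly the same shares of their pair (72.6% and 72.0% for Kdm2a). Kdm8 had 165 and 155 reads (0.14, −0.19 to 0.46).

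**Figure D4:**
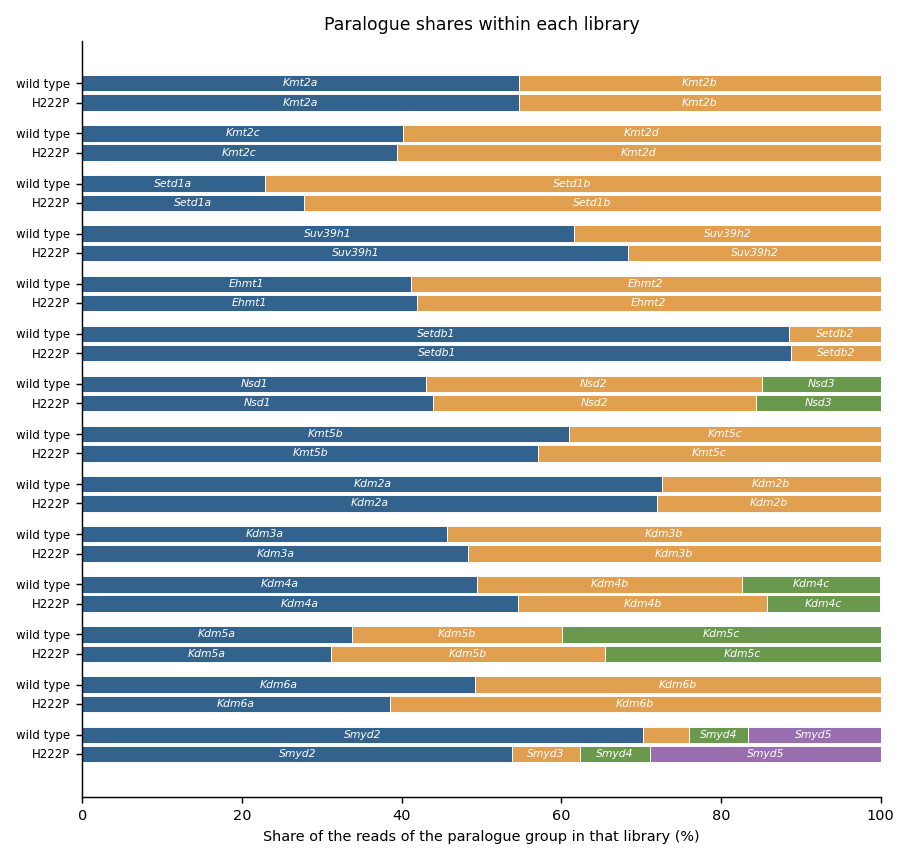
Share of the reads of each paralogue group (horizontal axis, percent) taken by each gene, with the wild-type library above the H222P library in each pair of bars. Reads are not divided by gene length. Kmt2a with Kmt2b, Ehmt, Setdb and Kdm2 keep nearly the same division, and the Smyd and Kdm6 groups show the widest shifts.

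Within each library, the summed reads of writers were also set against those of erasers, which removes the scaling between libraries. For H3K4, the 6 writer genes had 11833 reads and the 3 Kdm5 genes 11425 in wild type, a log2 ratio of 0.05 (0.01 to 0.09). In H222P the sums were 12177 and 10519, a log2 ratio of 0.21 (0.17 to 0.25). Divided by exon length, the same sums gave −0.41 in wild type and −0.17 in H222P, so whether writers or erasers had the larger sum depends on the length correction in both libraries. The difference between the libraries was 0.16 from reads and 0.24 per length, and it includes the X-linked Kdm5c. These H3K4 sums are incomplete. They leave out Setd7, described above as a monomethyltransferase of H3K4 (3391 and 2459 reads), and the LSD1 gene Kdm1a (3628 and 3549 reads). The H3K4 ratios with Setd7 and Kdm1a were not computed, so sign and difference hold for the named genes only. For H3K9, 6 writers against the KDM3 and KDM4 genes gave 0.12 (0.08 to 0.16) and 0.20 (0.16 to 0.24) from reads, 0.37 and 0.48 per exon length, and 0.00 and 0.08 from the unstranded column. The H3K9 eraser sum is incomplete, since it leaves out Kdm7a, which also acts on H3K9 and had 1007 and 1377 reads. The H3K9 ratios with Kdm7a were not computed, so the difference between the libraries holds for the named genes only. For H3K36, 5 writers against Kdm2a and Kdm2b alone gave 2.16 (2.11 to 2.21) and 2.10 (2.06 to 2.15). That eraser sum is incomplete, since the KDM4 genes, which also act on H3K36, are not in it. The writer sum holds the 5 named genes alone. It leaves out Smyd2, described above as a methyltransferase of histone and other proteins (3991 and 1885 reads). The H3K36 ratios with Smyd2 and the KDM4 genes were not computed, so the values hold for the named genes only. Transcript sums are not enzyme activity, and the values serve as a description of RNA only.

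Few partner proteins and related enzymes were 1.5-fold apart, a bound that 10.9% of all measured genes passed upward and 11.4% downward. Of 13 measured subunits of the COMPASS and MLL complexes, the H3K4 writers' assemblies, 0 were 1.5-fold apart and the median was 0.13. The core subunits Wdr5, Ash2l and Rbbp5 had log2 ratios of 0.25, 0.22 and 0.24, and Dpy30 one of −0.07. All 12 partners and readers of H3K9 and H4K20 methylation lay within 1.5-fold (median 0.02), from the heterochromatin protein gene Cbx3 at −0.39 to Uhrf1 at 0.52, as did all 12 of H3K36 and H3K79 (median 0.11), from Morf4l1 at −0.44 to Mllt3 at 0.43. Among 14 further enzymes of histone lysine methylation, Smyd1 alone passed 1.5-fold, and the median was 0.15. Ezh2, the H3K27 methyltransferase of Polycomb, had 2747 and 2829 reads (0.27, 0.19 to 0.35) and its paralogue Ezh1 594 and 462 (−0.14, −0.31 to 0.04). Kdm1a, the LSD1 gene, had 3628 and 3549 reads (0.19, 0.13 to 0.26), near the median of the 55 genes.

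**Figure D5:**
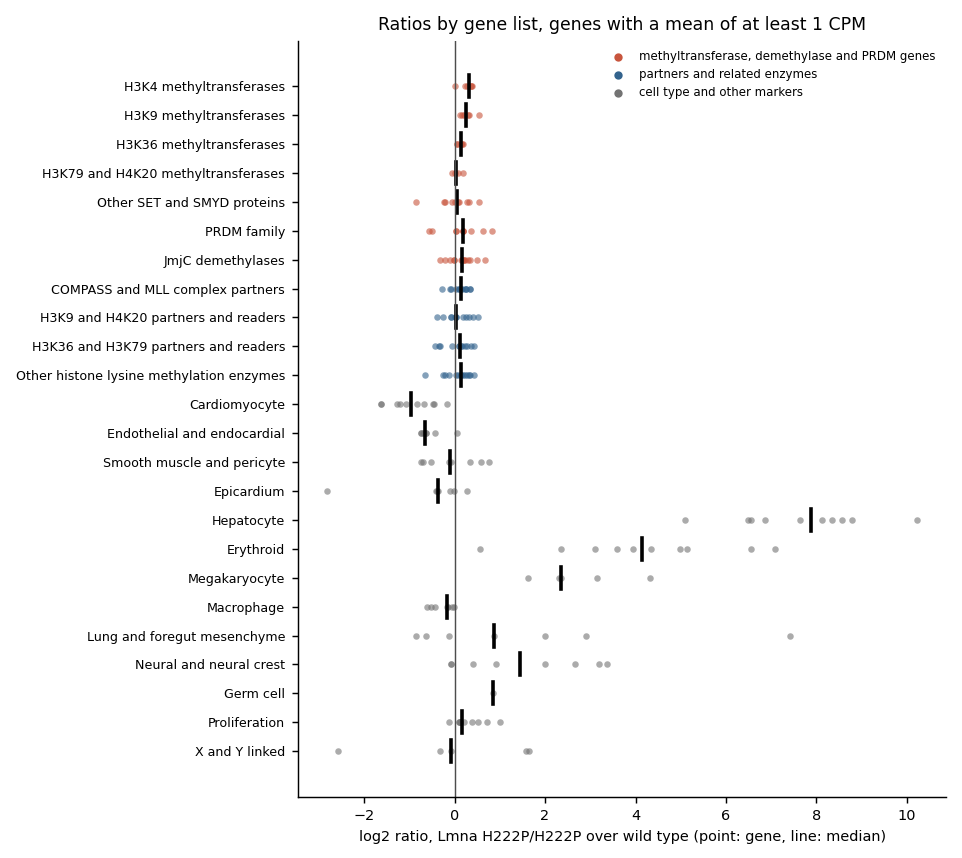
log2 ratio of Lmna H222P/H222P over wild type for each gene with a mean of at least 1 CPM, by list. Points are genes and black lines list medians. The enzyme and partner lists lie between −0.86 and 0.82, whereas hepatocyte markers have a median of 7.88 and cardiomyocyte markers one of −0.96.

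At the 55 measured genes, the opposite strand held a median per gene of 0.515% of strand-assigned reads in wild type and 0.583% in H222P. Summed over all genes, it held 4.94% and 4.65% of such reads, a pooled share and not a median. Among the 55 genes, Setd1a had the highest share in both libraries with 10.1% (54 reads) and 8.12% (47 reads). A gene on the other strand overlaps Setd1a. Of the genes under 1 CPM, Prdm8 had higher shares on few reads (9 opposite to 20 in wild type and 1 to 4 in H222P). Prdm6 had 5.43% in wild type (3.07 to 8.81) and 2.00% in H222P. Since the counts used here are strand-specific, these reads are not part of the values above.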

How the data were processed

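RNA-seq read counts of 1 wild-type and 1 Lmna H222P/H222P library from E13.5 hearts were analysed. The deposited values are raw counts per gene that the authors did not normalize. STAR, HTSeq and DESeq and the build mm10 are named, without versions or roles, per the submitters' processing notes. Which annotation release they counted on is not given in the sources used. Each table has 3 count columns and 4 summary entries. The reverse-strand column was used, and library sizes exclude the summary entries. Unmapped, multiply mapped, unassigned and ambiguous reads were 5.40%, 5.37%, 3.88% and 2.53% of wild-type reads and 5.10%, 6.09%, 4.45% and 2.38% of H222P reads. Multiply mapped reads are not counted, so near-identical copies are undercounted.

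Libraries were scaled with TMM factors (edgeR 4.0.16, R 4.3.3), and log2 ratios used a prior count of 0.5. Intervals are Clopper-Pearson (scipy 1.17.1) and do not include variation between hearts. Reads lack molecular identifiers and are not independent molecules. All 60 genes matched 1 protein-coding gene of GENCODE M21 (GRCm38, the same assembly as mm10), the source of coordinates and exon lengths. Promoters are from RefSeq (GRCm38.p6), the first listed start of each gene. A gene counted as measured when its average over both libraries reached 1 CPM. Named with values were genes 1.5-fold apart, extremes of each group above 5 CPM, paralogues, genes at 3 reads or fewer, and partner genes at least 1.5-fold apart, with Kdm1a, Ezh1 and Ezh2. The remaining members and the extremes and core subunits of partner lists were named after their values were seen. Members, lists and rules were chosen with earlier results of these data known. Results were recomputed with total counts, with TMM factors set without globin genes, with size factors of DESeq2 1.42.0, and with other filters and prior counts, the unstranded column, a thinned library and sums per exon length. Values of 1 measured gene are not reported here, although it is part of the counts and medians. The computation was tested on simulated data.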

Additional observations from a re-analysis of the deposited data

Results flagged for a closer look

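Opposite-strand reads at Kdm6b were more frequent in the H222P library, in a column that the comparisons do not use. There were 10 such reads in wild type and 22 in H222P, a log2 ratio of 1.33 (0.23 to 2.61), and Kdm6bos is annotated on that strand. Kdm6b was the only gene of 60 whose opposite-strand interval lay wholly above equality. Intervals in the other direction are not given, and Kmt5a had 35 opposite-strand reads in wild type and 13 in H222P. The intervals were not corrected for the 60 genes looked at, among which counting error alone can place an interval above equality. The share of all genes with such an interval was not computed, so no excess over background can be read from Kdm6b. The count is small against 2422 and 2553 reads on the strand of Kdm6b itself.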

How the results depend on the processing

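Smyd2 and Kdm7a remained past 1.5-fold under the 6 settings tried for single genes. The count of higher genes (3) became 6 with total counts alone, which added Kdm5b, Suv39h1 and Setd4. It became 5 without a filter on low counts and 1 with a filter of 20 CPM on the mean, chosen after seeing the data, both by the number of genes tested. It was 2 with a filter of 5 CPM, with the unstranded column and with the thinned library. The count of lower genes (1) became 2 with DESeq2 size factors, which added Prdm1 at a log2 ratio of −0.61, and 2 without a filter. With total counts alone, the median of the measured genes was 0.32, and group medians were 0.47 for H3K4, 0.40 for H3K9, 0.30 for H3K36, 0.19 for H3K79 and H4K20, 0.20 for other SET and SMYD, 0.33 for PRDM and 0.32 for JmjC genes, a shift shared with all genes (0.15). The H3K4 writer over eraser difference was 0.24 per exon length, where the ratio itself was below 0 in both libraries (−0.41 and −0.17) and not above it. Of 55 single-gene ratios, 40 moved beyond their counting interval with total counts and 0 with the other 5 settings, and 0 that passed 1.5-fold changed sign. Per exon length, 4 of 34 paralogue share differences between the libraries moved beyond their interval, those of Kdm5a, Kdm5b, Smyd2 and Smyd5. The shares within a library were not judged this way, and some depend on length. In wild type, Kmt5b held 61.0% of its pair by reads and 29.8% per exon length, and Kmt2c 40.2% and 39.7%. No paired analysis was possible because each group holds 1 library, for which leaving out a replicate was not possible either. Depth limits Prdm1, Prdm8, Prdm9, Prdm14, Setd4 and Kdm4d.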
